A study of Sus scrofa with 30 samples.

Results

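The genes described here encode enzymes that attach ubiquitin to proteins or take it off, in the cerebral cortex of pigs that underwent cardiac arrest, with or without resuscitation. The members were taken by their gene symbol: names that start with UBE2, UBE3, UBE4, OTUD, UCHL or FBXO, or with USP and a digit. By this rule 60 genes were found among the 6765 genes to which the array's annotation gave a single symbol. They comprised 24 E2 genes (UBE2), 4 ligase genes named UBE3 or UBE4, 13 F-box genes (FBXO) and 19 deubiquitinase genes (USP, UCHL and OTUD). A total of 95 probe sets, the groups of short probes that measure a transcript, matched these genes. For each gene the probe set with the highest mean signal over the 30 arrays was used. Of the 60 genes, 58 passed the filter on low signal and were tested. UBE2C, an E2 of the cell cycle that serves the anaphase-promoting complex, and UBE3D lay below it.

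Ubiquitin is a small protein that is joined to other proteins in a chain of enzymes. An E1 enzyme activates it, an E2 carries it, and a ligase (E3) chooses the protein that receives it, while deubiquitinases remove it. Most F-box proteins are the parts of cullin-RING ligases that recognise the target. Ubiquitin chains send proteins to the proteasome or change their signalling and traffic, and ubiquitin-bound protein is known to accumulate in brain after ischemia.

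Prepubertal farm pigs of both sexes, 12 to 14 weeks old, were anesthetized with pentobarbital and ventilated, and ventricular fibrillation was induced electrically in all of them. Each of 10 groups had 3 biological replicates. In 4 arrest-only groups the brain was taken after 0, 5, 20 or 30 min of untreated arrest (CA0, CA5, CA20, CA30), so that the CA0 control shared the anesthesia and the fibrillation. In 6 reperfused groups, chest compressions by machine for 8 min and a countershock ended an arrest of 12 min. Their brains were removed 30, 60 or 180 min after spontaneous circulation had returned (ROSC). An infusion of normal saline at 55 ml/kg/h was given to the SAL30, SAL60 and SAL180 groups. The MB30, MB60 and MB180 groups were given the same volume with 7.5 mg/kg/h of methylene blue, a dye that accepts and donates electrons and blocks nitric oxide signalling. Infusion began 1 min into the compressions and stopped 50 min past ROSC, so the cortex at 30 min was taken during it. No methylene blue group without arrest was among the samples used here. The sources used here do not give the region of cortex or the size of the piece. In bulk tissue, fewer cells of a type and less RNA per cell cannot be told apart.

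The values are array intensities in arbitrary units, and differences are given as log2(intensity + 16) with the standard error (SE) of a limma fit to all 10 groups. A difference was called at a Benjamini-Hochberg adjusted p under 0.05 over the 16799 probe sets tested. On 4 arrays the log2 ratio of 3' to 5' signal of the control transcripts, which rises as RNA is degraded or labelled incompletely, was above 2 (CA20 replicates 2 and 3, SAL60 replicate 2 and SAL180 replicate 3). SAL30 replicate 1 stood apart by its residual variance. This ratio was 0.545 to 1.43 on the 9 MB arrays (median 1.10), 1.06 to 2.58 on the 9 SAL arrays (median 1.44) and 1.05 to 2.61 on the 12 arrest-only arrays (median 1.63). The median intensity was 97.6 to 108 on the MB arrays and 87.1 to 105 on the other 21. RNA quality thus moved with the treatment arm, and its part in the results was not tested except through the fits named beside them. Neuronal markers were present, with 6 of 6 past the filter. Of 5 white blood cell markers 0 passed it, with summed intensities of 86.1 to 264 on the MB arrays, 102 to 154 on the SAL arrays and 68.1 to 143 on the arrest-only arrays.

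Among the members, signal differed widely from probe set to probe set, but probe sets bind with different strength, so their brightness does not rank the transcripts. UCHL1, a ubiquitin hydrolase long known as an abundant neuronal protein, gave the brightest signal, 6306 to 9884 (median 7224) over the 30 arrays. UBE2QL1, UBE2V1, UBE2Q1 and UBE2E3 followed, with mean intensities of 2939, 2867, 2786 and 2454. At the other end, UBE3D averaged 19.8, USP30 31.7 and UBE2C 32.5. Some members varied little within a group. The SD of log2 values within groups was 0.08 for USP10, 0.10 for UBE2N, the E2 that builds signalling chains, and 0.11 for USP4. It was largest for FBXO32, the muscle-wasting factor atrogin-1, at 0.50, followed by UBE2C (0.48), FBXO34 (0.39), USP18 (0.38) and UBE2W (0.37).

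In untreated arrest no member was called. In CA5 against CA0, 0 of 58 members passed, beside 0% of all probe sets, and 0 had an unadjusted p under 0.05, beside 1.89% of all. FBXO34 had the smallest p of the members, with a log2 difference of -0.55 ± 0.31 (adjusted p = 1). FBXO11, whose protein targets the transcription factor BCL6, differed by 0.36 ± 0.21 and UBE2V1 by -0.13 ± 0.11.

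At 20 min of arrest, 0 of 58 members passed in limma against 0.0119% of all probe sets, and 4 had an unadjusted p under 0.05 (4.24% of all). Of these FBXO11 had the smallest. It read 1158, 1251 and 1383 on the 3 CA0 arrays and 1607, 2015 and 2201 on the 3 CA20 arrays, a log2 difference of 0.60 ± 0.21 (adjusted p = 0.997). OTUD5, a deubiquitinase that restrains interferon signalling, read 736, 775 and 844 in CA0 and 1000.3, 1009 and 1074 in CA20 (0.38 ± 0.14). The CA20 arrays lay above the CA0 arrays for both genes. USP18, which removes the ubiquitin-like protein ISG15, differed by 0.66 ± 0.29. UBE2M, an E2 for the ubiquitin-like protein NEDD8, stood at -0.42 ± 0.20. CA20 replicates 2 and 3 were among the 5 arrays that stood apart, so that a fit without these leaves CA20 a single array and gives no check of its differences.

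At 30 min of arrest the count was again 0 of 58 in limma (0.0119% of all), with 2 members at an unadjusted p under 0.05 (4.06% of all). UBE2B, an E2 of DNA repair that also acts on histone H2B, read 715, 766 and 779 in CA0 and 945, 996 and 1087 in CA30, without overlap, a log2 difference of 0.41 ± 0.19 (adjusted p = 0.985). USP7, which deubiquitinates the p53 regulator MDM2, read 1564, 1623 and 1690.5 in CA0 and 1271, 1286 and 1539.6 in CA30 (-0.25 ± 0.12). FBXO7, an F-box protein mutated in inherited parkinsonism, differed by 0.38 ± 0.20.

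**Figure D1:**
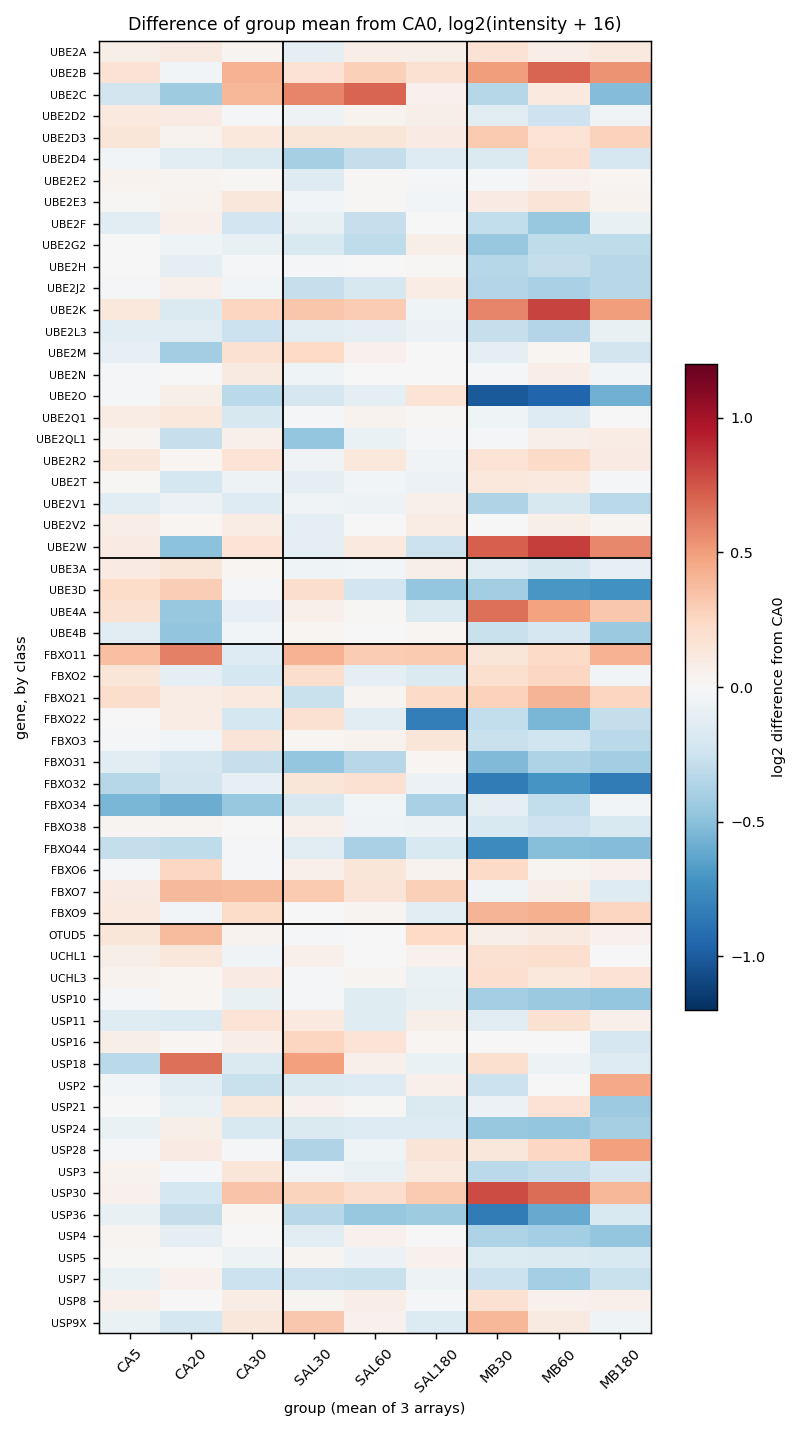
Difference of each group's mean log2(intensity + 16) from that of CA0, for the 60 genes (rows, by class) and 9 groups (columns, n = 3 arrays each). Red is higher and blue lower than CA0. UBE2O in MB30 is the deepest blue at -1.01 and UBE2W in MB60 the deepest red at 0.83, and FBXO22 in SAL180 stands out in its row at -0.83. UBE2C and UBE3D lay below the filter and were not tested. All columns share the CA0 arrays.

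Resuscitation under saline likewise called no member. In SAL30 against CA0, 0 of 58 passed in limma, beside 0.196% of all probe sets, and 2 had an unadjusted p under 0.05 (7.38% of all). In SAL60 the counts were 0 (0.315% of all) and 1 (6.3% of all), and in SAL180 they were 0 (0.875% of all) and 1 (8.73% of all). The median log2 difference of the members was -0.030, 0.0048 and 0.0072 at the 3 times, beside 0.019, 0.012 and 0.00088 over all probe sets tested. The 3 comparisons share the CA0 arrays.

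USP7 was among the 3 members with the smallest p at 30 and 60 min. It read 1334, 1337 and 1408 in SAL30, 1177, 1337 and 1543 in SAL60 and 1450.3, 1568 and 1651 in SAL180. The log2 differences from CA0 were -0.26 ± 0.12 (adjusted p = 0.653), -0.27 ± 0.12 (adjusted p = 0.719) and -0.06 ± 0.12. The SAL30 and SAL60 arrays lay below all 3 CA0 arrays, and the SAL180 arrays overlapped them. FBXO31, an F-box protein that targets cyclin D, differed by -0.47 ± 0.21 at 30 min and UBE2QL1 by -0.46 ± 0.23, the latter through a single low array (1155, with 2750 and 3257 on the others). USP36, a deubiquitinase of the nucleolus, differed by -0.46 ± 0.25 at 60 min and -0.42 ± 0.25 at 180 min. At 180 min FBXO22, an F-box subunit that targets histone demethylases, read 241, 334 and 592 against 589.8, 612 and 791 in CA0, a log2 difference of -0.83 ± 0.28 (adjusted p = 0.237). The lowest of the SAL180 values came from replicate 3 of that group, an array with a high 3'/5' ratio, and without the 5 arrays that stood apart the difference was -0.55 (adjusted p = 0.434). OTUD5 differed by 0.24 ± 0.14 there, and USP10 by -0.15 ± 0.09 at 60 min.

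Members were called when both arms of reperfusion were averaged against the 4 arrest-only groups. Of 58 members, 11 passed, beside 17.6% of all probe sets tested. The 4 that rose (10.4% of all) were UBE2B, UBE2K, UBE4A and USP30, and the 7 that fell (7.25% of all) were UBE2J2, UBE2O, USP10, USP24, USP36, USP4 and USP7. The share of members called was 19.0%, near the background. Of the 4 that rose, UBE2B lost its call in 15 of the 30 fits that leave out an array, UBE4A in 17 and UBE2K in 2 (without CA5 replicate 1 or CA20 replicate 3). With median centring UBE2B differed by 0.17 (adjusted p = 0.124), UBE2K by 0.27 (adjusted p = 0.0526) and UBE4A by 0.23 (adjusted p = 0.0921), none of them called. USP30 kept its call in all 30 fits and lost it with quantile normalization and without the 5 arrays that stood apart. With the 3 saline groups alone against the arrest-only groups, 0 of 58 passed in limma (1.5% of all) and 1, USP36, had an unadjusted p under 0.05 (10.1% of all), and with the 3 methylene blue groups alone 25 passed (36.3% of all). Of those 25, 7 were higher (20.2% of all) and 18 lower (16.1% of all). Over the 5773 tested genes with a single symbol, each by its brightest probe set, these shares were 16.4% and 17.5%. The saline and methylene blue arrays share the same arrest-only arrays in these fits. UBE2O differed by -0.38 ± 0.09 for both arms, and with saline alone no difference was shown, at 0.02 ± 0.10 (adjusted p = 0.972).

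Of these 11, USP30, USP7 and USP36 were not called between the arms. USP30, a deubiquitinase of the mitochondrial outer membrane that opposes the removal of mitochondria, lay close to the filter. It read 13.5 to 41.5 (median 22.5) on the arrest-only arrays, 15.6 to 45.3 (median 28.7) on the SAL arrays and 24.7 to 58.3 (median 44.1) on the MB arrays. The 3 ranges overlapped, and the log2 differences from the arrest-only groups were 0.22 ± 0.13 (adjusted p = 0.596) for SAL and 0.57 ± 0.13 (adjusted p = 0.00111) for MB. USP36 read 122 to 220.0 (median 147) on the arrest-only arrays, 71.7 to 163 (median 123) under saline and 59.7 to 152 (median 124) under methylene blue. Its difference was -0.32 ± 0.13 (adjusted p = 0.384) for SAL and -0.45 ± 0.13 (adjusted p = 0.0105) for MB. For USP7 the 2 values were -0.13 ± 0.06 (adjusted p = 0.495) and -0.24 ± 0.06 (adjusted p = 0.00409). The direct comparison of the arms gave 0.35 ± 0.13 (adjusted p = 0.0556) for USP30, -0.13 ± 0.14 (adjusted p = 0.52) for USP36 and -0.11 ± 0.07 (adjusted p = 0.218) for USP7, so a difference between the arms was not shown for these 3. With the 3'/5' ratio as a covariate, all 3 lost their calls in the average over both arms, where the count of members fell from 11 to 4.

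The arms differed most when methylene blue was set against saline over the 3 times. Of 58 members, 16 passed, 27.6% of them, beside 25.2% of all probe sets, so the members were called about as often as the array as a whole. The 6 that were higher with methylene blue (13.8% of all) were FBXO9, UBE2B, UBE2K, UBE2W, UBE4A and USP28. The 10 that were lower (11.4% of all) were FBXO3, FBXO32, FBXO38, UBE2H, UBE2J2, UBE2O, UBE2V1, USP10, USP24 and USP4. Over the 5773 tested genes with a single symbol, each by its brightest probe set like the members, 10.5% were called higher and 13.5% lower. Calls of such genes thus leaned lower, as those of the members did. The median over the 58 was -0.08 on the log2 scale, beside 0.02 over all probe sets. By class, 3 E2 genes of 23 were higher and 4 lower, 1 of 3 UBE3 and UBE4 genes was higher, 1 of 13 F-box genes was higher and 3 lower, and 1 of 19 deubiquitinases was higher and 3 lower. With median centring of the arrays the split was 5 higher and 18 lower, and with quantile normalization 8 higher and 11 lower. Over all probe sets the share of calls that were higher was 54.7%, and 31.0% and 44.8% under those scalings.

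UBE2O showed the lowest adjusted p. It encodes a large enzyme that acts as E2 and ligase at once and removes unassembled proteins. Its intensity was 1408, 1498 and 1669 on the CA0 arrays, 1350.0, 1525 and 1628 in CA5, 1411, 1688 and 1703 in CA20 and 1091, 1200.2 and 1374 in CA30. Under saline it was 1124, 1378 and 1492 in SAL30, 1230.1, 1351 and 1688 in SAL60 and 1562, 1777 and 1782 in SAL180. With methylene blue it was 451, 876 and 1047, 743, 758 and 837 and 893, 1034 and 1122. All 9 MB arrays lay below all 9 SAL arrays, and 8 of them below all 21 other arrays. The log2 difference was -0.80 ± 0.11 (adjusted p = 2.59e-05), and it was called at each time, at -0.81 ± 0.19, -0.84 ± 0.19 and -0.74 ± 0.19. With the 3'/5' ratio as a covariate the difference over the 3 times was -0.71 (adjusted p = 0.00118).

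USP10, a deubiquitinase of p53 that also binds the stress granule protein G3BP, was separated by arm without exception. It read 1327, 1331 and 1424 in CA0, 1327, 1357 and 1361 in CA5, 1306, 1378 and 1460.0 in CA20 and 1194, 1321 and 1336 in CA30. The SAL arrays read 1328, 1358 and 1363, 1154, 1259 and 1263 and 1191, 1228 and 1413 at the 3 times. The MB arrays read 998, 1018 and 1048, 956, 985 and 1049 and 916, 944 and 1102. Every MB array was below every one of the 21 others. The difference of -0.35 ± 0.05 (adjusted p = 6e-05) was smaller than that of UBE2O, on a probe set with the smallest spread within groups. It was called 30 min (-0.40 ± 0.09 (adjusted p = 0.0154)) and 180 min (-0.37 ± 0.09 (adjusted p = 0.0359)) after ROSC, and the value at 60 min, -0.29 ± 0.09 (adjusted p = 0.0984), was not.

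USP4, a deubiquitinase of TGF-beta receptor signalling, was lower with methylene blue by -0.39 ± 0.07 (adjusted p = 0.000277). The arrest-only arrays read 275 to 339 (median 299.7) and the SAL arrays 259 to 326 (median 309.6). The MB arrays read 215, 224 and 263 in MB30, 212, 219.6 and 252 in MB60 and 190.4, 229 and 239 in MB180. All but 1 of the MB arrays were below all others. It was called at 60 min (-0.46 ± 0.12 (adjusted p = 0.0459)) and 180 min (-0.47 ± 0.12 (adjusted p = 0.0387)) and not at 30 min (-0.24 ± 0.12 (adjusted p = 0.234)). USP24, a large ubiquitin-specific protease, was lower by -0.28 ± 0.08 (adjusted p = 0.0174), with 501 to 736 (median 565) on the SAL arrays and 366 to 542 (median 492) on the MB arrays, which overlap. USP28, known for stabilising the transcription factor MYC, was the sole deubiquitinase called as higher, by 0.38 ± 0.11 (adjusted p = 0.0165). It read 101 to 255 (median 222) under saline and 206 to 344 (median 264) with methylene blue, and 6 of 9 MB arrays lay above all others.

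**Figure D2:**
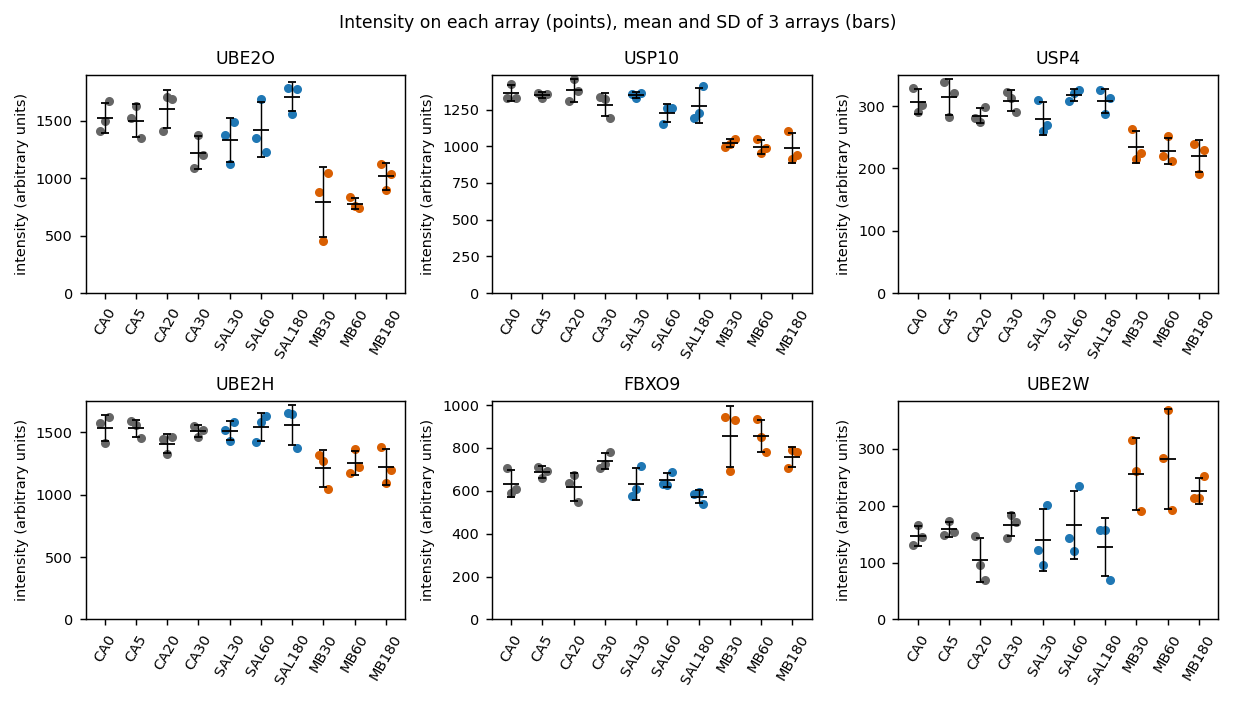
Intensity on each of the 30 arrays for 6 genes called between the arms, in arbitrary units on axes that start at 0. Points are arrays (grey for arrest only, blue for saline, orange for methylene blue), and bars give mean and SD (n = 3). The orange points of USP10 lie between 916 and 1102, below every other point, and those of UBE2W spread over the range of saline in part.

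Among the E2 genes, UBE2H, which works with the CTLH ligase, was lower with methylene blue by -0.32 ± 0.06 (adjusted p = 0.000722). It read 1374 to 1657 (median 1583) on the SAL arrays and 1043 to 1381 (median 1224) on the MB arrays, and 8 of 9 MB arrays were below all SAL arrays. UBE2V1, an inactive E2 variant that pairs with UBE2N, was lower by -0.28 ± 0.06 (adjusted p = 0.00247), at 2111 to 2734 (median 2564) against 2689 to 3276 (median 3202). Its partner UBE2N differed by 0.02 ± 0.06 (adjusted p = 0.822) and read 1313 to 1658 (median 1501) against 1205 to 1584 (median 1544). UBE2J2, an E2 of the endoplasmic reticulum membrane, was lower by -0.23 ± 0.08 (adjusted p = 0.0445). Its groups overlapped at 30 and 180 min, and at 60 min they did not (311, 316 and 350.1 against 352, 357 and 413).

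Higher with methylene blue was UBE2W, an E2 that joins ubiquitin to the amino end of proteins. It read 96.3, 122 and 201 in SAL30, 120.1, 143 and 234 in SAL60 and 68.9, 156 and 156 in SAL180. With methylene blue it read 190.2, 261 and 316, 193, 284 and 368 and 213, 213 and 253. The arms overlapped at 30 and 60 min and not at 180 min, and the lowest values of all came from SAL180 replicate 3 and CA20 replicate 3, the arrays with the highest 3'/5' ratios. The log2 difference was 0.79 ± 0.17 (adjusted p = 0.00132), and 0.44 (adjusted p = 0.0428) with the 3'/5' ratio as a covariate. UBE2K, an E2 that binds huntingtin, was higher by 0.44 ± 0.14 (adjusted p = 0.0218), and UBE2B by 0.37 ± 0.11 (adjusted p = 0.0146). UBE2K read 343 to 678 (median 423) on the MB arrays and 181 to 489 (median 312) on the SAL arrays. UBE2B read 865 to 1379 (median 1115) and 654 to 1119 (median 900.0). Both pairs of ranges overlapped, and with the covariate the differences were 0.16 (adjusted p = 0.421) for UBE2K and 0.18 (adjusted p = 0.280) for UBE2B.

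Of the ligase genes, UBE4A, a U-box enzyme that lengthens ubiquitin chains, was higher with methylene blue by 0.52 ± 0.14 (adjusted p = 0.00676). It read 70.0, 73.1 and 81.4, 63.6, 63.7 and 89.6 and 48.2, 64.1 and 73.0 under saline. It read 102, 127 and 137, 59.4, 131 and 143 and 68.9, 88.0 and 129 with methylene blue. At 30 min the arms did not overlap, and later they did. With the covariate the call was lost (0.33, adjusted p = 0.129). Its relative UBE4B differed by -0.32 ± 0.14 (adjusted p = 0.0822), without a call. UBE3A, the ligase lost in Angelman syndrome, read 1633 to 2635 (median 2181) in arrest, 1676 to 2422 (median 2112) under saline and 1726 to 2064 (median 1931) with methylene blue, and the arms differed by -0.14 ± 0.07 (adjusted p = 0.187).

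FBXO9 led the F-box genes. Its protein targets regulators of the growth kinase mTOR. It read 574, 607 and 715 in SAL30, 627, 634 and 687 in SAL60 and 538, 584 and 596 in SAL180. With methylene blue it read 691, 928 and 945, 783, 851 and 934 and 705, 783 and 789, and 7 of 9 MB arrays lay above all 21 others. The log2 difference was 0.40 ± 0.07 (adjusted p = 0.000251), and it was called at 30 min (0.42 ± 0.12 (adjusted p = 0.0475)). The CA30 arrays, at 708, 725 and 782, had the highest mean of the arrest-only groups, and a CA5 array at 713 lay among them.

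FBXO32 had the largest difference of the 58, -0.88 ± 0.21 (adjusted p = 0.00402), and also the largest spread within groups. It read 345 to 1474 (median 857) in arrest, 583 to 1628 (median 935) under saline and 395 to 626 (median 549) with methylene blue. Of 9 MB arrays, 5 lay below all SAL arrays, and 0 lay below all 21 others, since a CA5 array read 345. The call was lost with the covariate (-0.56, adjusted p = 0.102) and without the 5 arrays that stood apart (-0.60, adjusted p = 0.0714). FBXO3 was lower by -0.34 ± 0.09 (adjusted p = 0.00996), at 423 to 644 (median 514) against 544 to 828 (median 655). FBXO38, whose protein targets the receptor PD-1 in T cells, was lower by -0.19 ± 0.07 (adjusted p = 0.0344). FBXO44 and FBXO7 missed the threshold, at -0.37 ± 0.14 (adjusted p = 0.0538) and -0.29 ± 0.11 (adjusted p = 0.0608). FBXO2, an F-box protein of the brain that binds glycoproteins, differed by 0.16 ± 0.12 (adjusted p = 0.35).

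**Figure D3:**
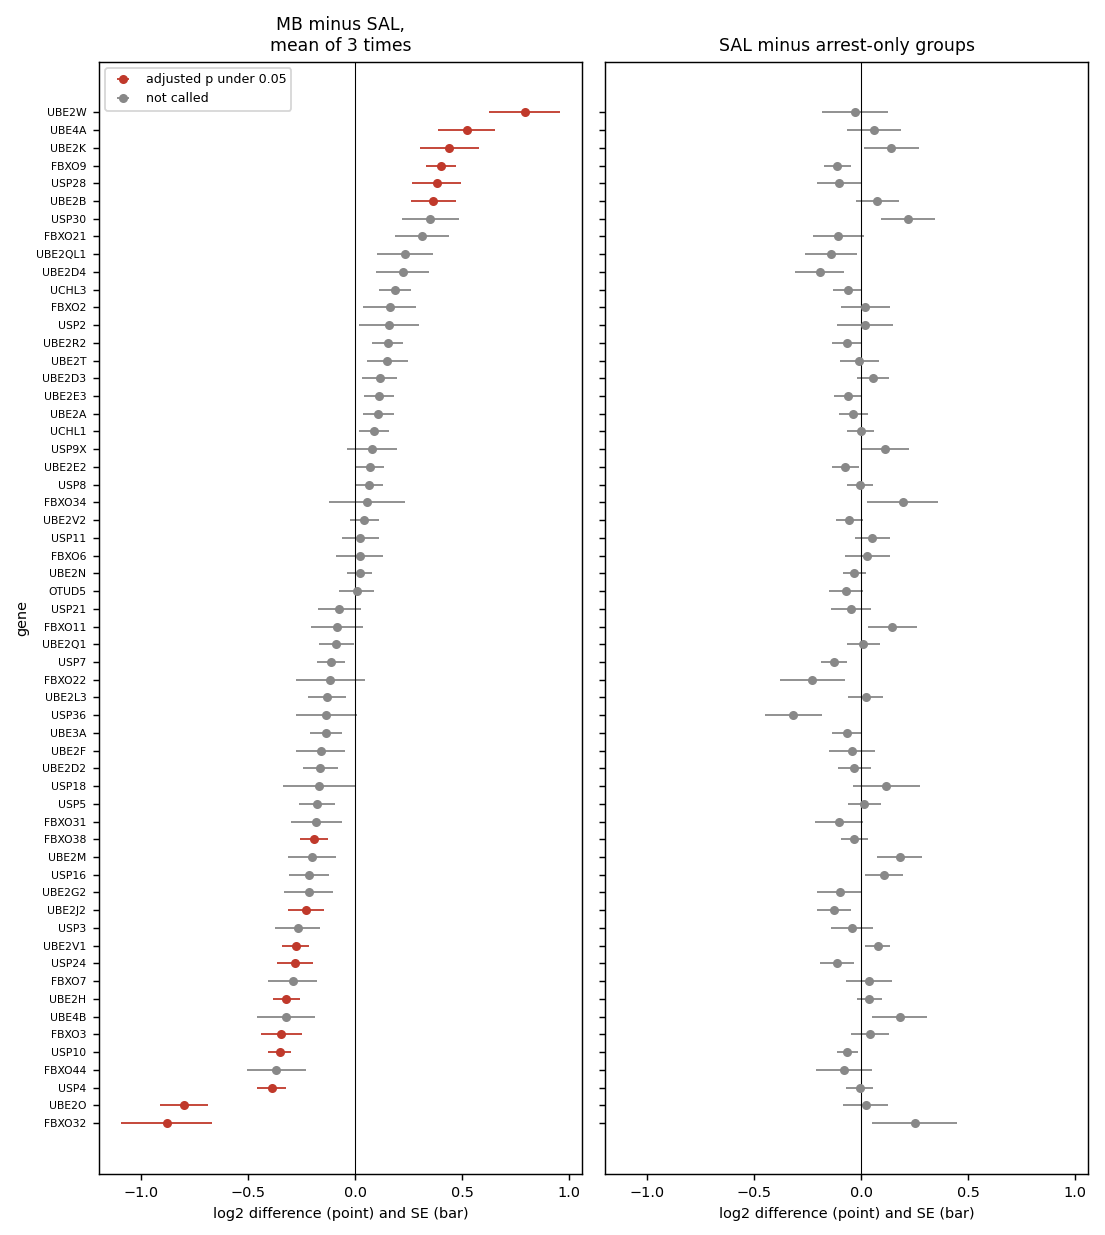
Log2 differences with SE for the 58 tested members, methylene blue minus saline over the 3 times (left) and saline minus the 4 arrest-only groups (right), ordered by the left panel. Red marks an adjusted p under 0.05 in limma: 16 members on the left, from FBXO32 at -0.88 to UBE2W at 0.79, and 0 on the right.

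Single times gave few calls. At 30 min 3 of 58 members passed between the arms (4.09% of all), of which UBE2O and USP10 were lower (1.69% of all) and FBXO9 higher (2.4% of all). At 60 min 2 passed (1.52% of all), UBE2O and USP4, and both were lower (0.798% of all). At 180 min 3 passed (1.9% of all), and UBE2O, USP10 and USP4 were lower (0.619% of all). These counts rest on single arrays. At 30 min the count was 1 without SAL30 replicate 1 (USP10) or MB30 replicate 1 (UBE2O) and 5 without SAL30 replicate 3. At 60 min it was 0 without SAL60 replicates 1 or 2 or MB60 replicates 2 or 3, and 1 without SAL60 replicate 3 or MB60 replicate 1. At 180 min it was 0 without SAL180 replicates 1 or 3 or MB180 replicates 2 or 3, and 6 without MB180 replicate 1.

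A change of the arm difference with time was not shown. In a test of whether it varied over the 3 times, 0 of 58 members and 0 of 16799 probe sets passed in limma, beside 0% called, and 2 members, FBXO22 and USP11, had an unadjusted p under 0.05 (2.88% of all). FBXO22 had the largest change from 30 to 180 min between the arms, 1.02 ± 0.40 (adjusted p = 0.999). It read 612, 777 and 891, 334, 754 and 838 and 241, 334 and 592 under saline at the 3 times. It read 467, 541 and 606, 366, 447 and 537 and 493, 554 and 569 with methylene blue. The saline values spread widely at 60 and 180 min, and the MB values did not. The lowest saline values at these times came from SAL60 replicate 2 and SAL180 replicate 3, whose log2 3'/5' ratios were 2.31 and 2.58. The value of 334 at 180 min came from replicate 1, at a ratio of 1.78. Over both arms, 0 of 58 members passed in 180 against 30 min (2.03% of all), and 8 had an unadjusted p under 0.05 (15% of all). The smallest belonged to USP9X, a large protease encoded on the X chromosome, at -0.47 ± 0.14 (adjusted p = 0.0943), USP28 at 0.44 ± 0.14 (adjusted p = 0.111) and UBE2O at 0.40 ± 0.14 (adjusted p = 0.145). The count was 2 without SAL30 replicate 2 (USP28 and USP9X), 1 without SAL180 replicate 1 (USP9X) and 1 without MB30 replicate 3 (UBE2O).

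**Figure D4:**
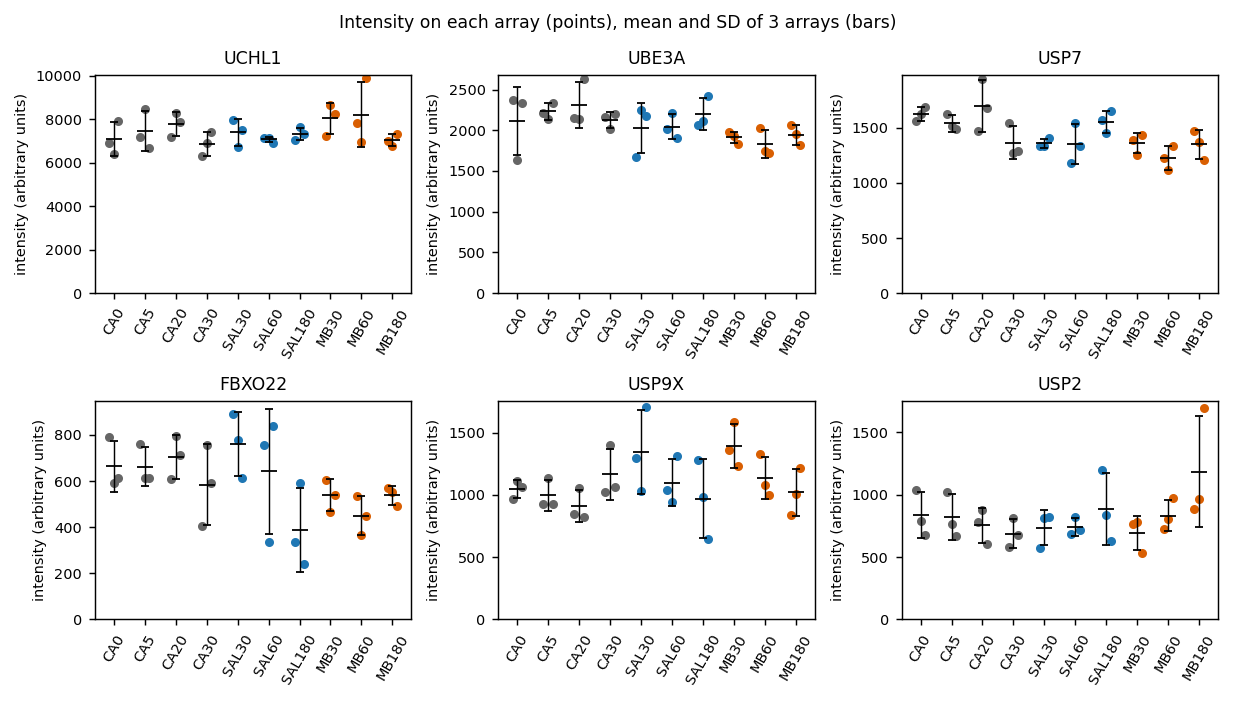
Intensity on each of the 30 arrays for 6 genes not called between the arms, in arbitrary units on axes that start at 0, with mean and SD (n = 3). The grey, blue and orange points (arrest only, saline, methylene blue) overlap in every panel, and FBXO22 reaches its lowest value, 241, in SAL180.

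Over all 10 groups at once, 7 of 58 members passed an F-test, beside 15.3% of all probe sets: FBXO9, UBE2H, UBE2O, UBE2W, UBE4A, USP10 and USP4. All 7 were among the 16 called between the arms. UCHL1 was not among them, at 6306 to 8484 (median 7191) in arrest, 6712 to 7974 (median 7163) under saline and 6795 to 9884 (median 7342) with methylene blue, and its arms differed by 0.09 ± 0.07 (adjusted p = 0.363).

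Probe sets of the same gene did not always move together. Of the 60 genes, 25 had several probe sets, and of the 35 that were not used, 24 passed the filter. Of these 24, 6 were called between the arms, beside 25.2% of all probe sets tested. Among the 16 genes called between the arms, 8 had other probe sets. There were 11 such probe sets, of which 7 passed the filter and 1 was called. That one belonged to UBE2V1 and went the other way, by 0.53 ± 0.16 (adjusted p = 0.0145), while another of its probe sets read -0.24 ± 0.13. For UBE2O the second probe set read 0.18 ± 0.14 (adjusted p = 0.358) at a mean intensity of 125, where the first averaged 1290 units and fell. For USP10 the second read -0.38 ± 0.21, close to the first but not called. For UBE2H it read 0.10 ± 0.10 and for USP4 0.05 ± 0.17.

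The reverse case also occurred, in genes whose brightest probe set was not called. Not all such probe sets are described, and those of USP7 and UBE2E3 are given here. A second probe set of USP7 was higher with methylene blue by 0.92 ± 0.21 (adjusted p = 0.00295), whereas the first differed by -0.11 ± 0.07. Both other probe sets of UBE2E3 were higher, by 0.68 ± 0.10 (adjusted p = 3.81e-05) and 0.42 ± 0.12 (adjusted p = 0.0104), beside 0.11 ± 0.07 for the brightest, whose probes are shared with other transcripts by its suffix. The calls are therefore those of a probe set, and which transcript form each one reads is not given by the annotation used here.

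**Figure D5:**
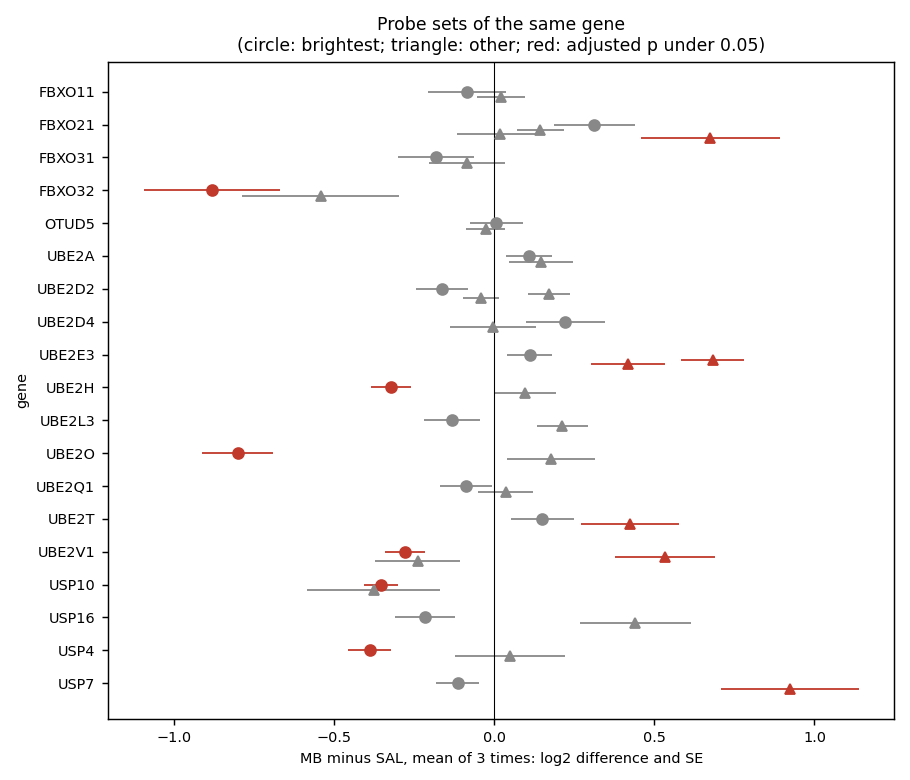
Methylene blue minus saline over the 3 times, as log2 difference with SE, for the 43 tested probe sets of 19 genes that have several. Circles are the brightest probe set of a gene and triangles the others, and red marks an adjusted p under 0.05 in limma. UBE2V1 has red symbols on both sides of 0, and USP7 has a red triangle at 0.92 beside a grey circle at -0.11.

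Between the arms, calls among other genes of the pathway are to be read beside 13.8% of all probe sets called higher and 11.4% called lower. Over the tested genes with a single symbol, the shares were 10.5% and 13.5%. Of 2 ubiquitin genes 0 were called in limma. The 5 E1 genes found were ATG7, NAE1, SAE1, UBA2 and UBA3, which serve ubiquitin-like proteins. UBA1 and UBA6, the E1 genes for ubiquitin itself, were not among them. Of the 5, UBA2, a subunit of the activating enzyme for SUMO, was higher by 0.31 ± 0.07 and its partner SAE1 lower by -0.30 ± 0.06. Of 13 cullin-RING core genes 2 were higher and 3 lower, with DDB1, an adaptor of the CUL4 ligases, at 1.09 ± 0.13 and CUL4A itself at -0.49 ± 0.09. Of 7 F-box genes of the FBXL and FBXW kinds 1 was higher, FBXW7 at 0.79 ± 0.19, and 2 were lower. Of 10 other deubiquitinases 1 was higher and 3 lower, and of 42 other ligases 4 and 3. Of 33 proteasome subunits 4 were higher and 7 lower. PSMD4, the ubiquitin receptor of the proteasome, was higher by 1.76 ± 0.12 and PSMD11, a subunit of its lid, lower by -0.34 ± 0.06. In saline alone against the arrest-only groups, 0 members of any of these lists were called in limma, beside 1.5% of all probe sets.

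Of the markers of cell types, a few were called between the arms, where 25.2% of all probe sets were. SYT1 of neurons, SLC1A3 of astrocytes, CDH5 of endothelium and DCN of meninges were higher with methylene blue and TYROBP of microglia was lower. These were 1 of 6, 1 of 4, 1 of 5, 1 of 3 and 1 of 3 markers of their lists, and of 4 oligodendrocyte, 2 smooth muscle and 2 red blood cell markers 0 were called in limma. The summed intensity of the 3 meningeal markers was 548 to 834 on the MB arrays and 391 to 733 on the SAL arrays. That of the 6 neuronal markers was 27524 to 46676 and 25989 to 35867, and that of the 3 microglial markers 699 to 1086 and 746 to 2253. The sum of the 2 choroid plexus markers was 143 to 268 on the MB arrays and 136 to 365 on the SAL arrays. On the arrest-only arrays it was 151 to 12196.5 (median 182), where TTR, which did not pass the filter, reached 11962. The part of these in the members' differences was not tested.

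Of the 16 calls between the arms, 8 held in all alternatives: FBXO3, FBXO9, UBE2H, UBE2O, UBE2V1, UBE2W, USP10 and USP4. The settings with any probe set of a gene and with a repeated symbol counted once reused the main fit. They kept the brightest probe set for these calls and so could not lose one. As given above, other probe sets of UBE2O, UBE2H and USP4 were not lower, and UBE2V1 had calls in both directions. Of the other 8, FBXO32, UBE2B, USP24, UBE4A, UBE2K, UBE2J2 and FBXO38 lost theirs with the 3'/5' ratio as a covariate and USP28 with median centring. Without the 5 arrays that stood apart, 10 members were called, and UBE2O still differed by -0.74 (adjusted p = 0.000958) and USP10 by -0.32 (adjusted p = 0.00123). UBE2K was also lost without SAL60 replicate 2, SAL180 replicate 3 or MB60 replicate 2, UBE2J2 in 12 of the 18 fits that leave out an array and FBXO38 in 10.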

How the data were processed

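Cortex RNA was hybridised to an Affymetrix porcine array. The deposited values are linear intensities that the authors made with GCOS, per the submitters' processing notes. Its version and settings: not given in the sources used here. The file held 24123 probe sets. After 124 controls were left out, 10069 of 23999 had 1 gene symbol in the platform's table, 198 several entries and 13732 none. Of the 198, 5 matched the symbol rule and were left out. Of the 60 genes, 56 matched the RefSeq gene table by gene ID. No sequence or genome position was used.

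All tests used log2(intensity + 16). Probe sets below the 30th percentile of mean log2 (intensity about 29.5) were left out. One limma 3.58.1 fit (R 4.3.3) gave each of the 10 groups a mean, with 20 residual degrees of freedom. Variances were moderated by empirical Bayes along an intensity trend. Tests were two-sided, and p-values were adjusted by Benjamini-Hochberg over the probe sets of a contrast. Precision is limited by 3 arrays a group. The pipeline was tested on simulated data. The 3'/5' ratio is the mean over 5 pairs of actin and GAPDH control probe sets.

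Members, lists, contrasts and the naming rule were chosen with earlier results of these data known. Named were all members called, the 3 with the smallest p in each contrast, the 5 brightest and 3 dimmest, the 5 most and 3 least variable, and a fixed set (UCHL1, UBE3A, UBE2N, UBE2K, UBE4B, USP7, USP9X, USP14, USP30, FBXO2, FBXO7, FBXO32), of which USP14 was not among the members found, and 1 further gene that is not reported here. UBE2M, USP11, FBXO44 and the genes of the pathway and marker lists were named after their values were seen. Alternatives were pseudocounts of 1 and 64, a filter at the 50th percentile or none, quantile normalization, median centring, no trend, compared groups alone, a replicate block, the 3'/5' ratio as a covariate, any probe set of the gene, and each array left out. The replicate numbers showed no pairing of the arrays.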

Additional observations from a re-analysis of the deposited data

How the results depend on the processing

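The 313 counts of members under the alternatives stayed within 1.5 times the main count in 273 cases. Cases where 0 stayed 0 are among these, as in each comparison with CA0 when an array was left out. In the average of the 6 reperfused groups against arrest only, where 11 members were called, the count was 17 with median centring, 4 with the 3'/5' ratio as a covariate, 0 with saline alone and 25 with methylene blue alone. With saline alone no difference was shown for UBE2O, at 0.020 (adjusted p = 0.972). At 30 min between the arms (3) it was 0 with the compared groups alone and 1 without the 5 arrays that stood apart. At 60 min (2) it was 1 without a filter, 0 with the covariate, 1 with the compared groups alone and 0 without the 5 arrays. At 180 min (3) it was 1 with quantile normalization, 7 with median centring, 1 with no intensity trend, and 0 with the covariate, with the compared groups alone and without the 5 arrays. Over the 3 times (16) it was 10 with the covariate and 10 without the 5 arrays. In the F-test (7) it was 11 with median centring, 3 with the covariate, 11 with any probe set of a gene and 4 without the 5 arrays. Leaving out an array gave 8 to 12 for the reperfused average, 1 to 5, 0 to 1 and 0 to 6 at the 3 times, 13 to 20 over the times, 0 to 2 for 180 against 30 min, 5 to 12 in the F-test, with 12 without SAL60 replicate 2, and 0 in each comparison with CA0. The fits without the 5 arrays, with a single arm or with a repeated symbol counted once were chosen after seeing the data.

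Median centring moved the median difference of all probe sets to -0.11 at 180 min, from 0.032. The replicate number as a block gave 11 for the reperfused average, 2, 2 and 2 at the 3 times, 16 over the times and 7 in the F-test. The numbers showed no pairing of the arrays. Correlations between arrays of the same number ran from -0.376 to 0.365 (median -0.0034), and between other numbers from -0.381 to 0.326 (median -0.0105). Of 30 arrays, 8 correlated best with their own number. What the number marks is not given by the labels. Of 1564 values of single members, 1399 kept their direction and side of the threshold, 160 lost a call, 4 gained one and 1 changed sign. The last was UBE2O with saline alone, at 0.020 and without a call. The values that kept both include the settings with any probe set or a repeated symbol, which could not change a single member. The causes were not tested. The 3 arrays per group limit every value, and for USP30, near the filter, low signal does too.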
